A study of Mus musculus with 130 samples.

Results

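A set of 8 genes was followed here in mouse liver RNA. Of these, 7 encode proteins of neutrophil granules or cytosol, S100a8, S100a9, Ngp, Ltf, Camp, Mpo and Elane, and the other is Irf8, a transcription factor of the myeloid lineage. The 8 genes were listed by symbol and matched to their Ensembl identifiers. All 8 were present among the 35274 genes of the diet table and the 35711 genes of the strain table. They were selected on measured RNA levels of these mice, with earlier results known and strain BXH2/TyJ in view. The levels in that strain are therefore a description, with no test, and the tests below are not independent of the choice.

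Neutrophils are made in bone marrow from a progenitor shared with monocytes. Primary granules are filled at the promyelocyte stage, with Mpo (myeloperoxidase, which makes hypochlorous acid) and Elane (neutrophil elastase, a serine protease). Secondary granules follow at the myelocyte stage, with Ltf (lactoferrin, which binds iron), Camp (cathelicidin, an antimicrobial peptide) and Ngp (neutrophilic granule protein). S100a8 and S100a9 form calprotectin, an abundant cytosolic protein of neutrophils that withholds zinc, manganese and other metals from microbes. Irf8 favours the monocyte and dendritic cell fates over the neutrophil fate, and is also expressed in macrophages and B cells.

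By the labels, the study measured liver RNA of 130 male mice. The diet study used C57BL/6J mice in 5 groups of 3: a chow diet, diets with 50 ppm or 500 ppm iron, a diet with 2% carbonyl iron, and a diet with 2% carbonyl iron and cellulose. In the last, the label names cellulose as the fibre source. The labels do not give the fibre source of the other diets. The strain panel held 115 libraries of 114 inbred strains, each fed chow for 4 weeks and then 2% carbonyl iron for 6 weeks. It comprised 56 BXD strains, 20 AXB/BXA strains, 4 BXH strains, 3 CXB strains and 31 other inbred strains. Each strain was 1 mouse, except 129X1/SvJ with 2 mice, and low-iron mice of the panel strains were not analysed here, apart from C57BL/6J in the diet study. The labels give neither ages nor batches. Nothing in them says whether mice of a group shared a cage or litter, so p-values measure the spread between these mice.

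Libraries of the diet study held 10420708 to 20357169 counts each, and those of the panel 9407880 to 20572879 counts. Levels are given as CPM, the count of a gene relative to the library total scaled by its TMM factor. Of the members, 6 passed the filter on low counts in the diet study, which left 13560 genes. Camp and Elane did not pass and were not tested there. All 8 passed in the panel, which left 15695 genes. The tissue was liver by its defining markers: the summed level of 10 hepatocyte genes was 90920 CPM in BXH2/TyJ and 59830 to 174900 CPM in the other strains. In bulk RNA, fewer cells of a type and less RNA per cell cannot be told apart.

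The members lie on 5 chromosomes of GRCm38. S100a8 (ENSMUSG00000056054) is at chr3:90668978-90670035 on the plus strand. S100a9 (ENSMUSG00000056071) is at chr3:90692632-90695721 on the minus strand, 22597 bases from S100a8. Camp (ENSMUSG00000038357, chr9:109847379-109849617, minus strand), Ngp (ENSMUSG00000032484, chr9:110419747-110423012, plus strand) and Ltf (ENSMUSG00000032496, chr9:111019271-111042767, plus strand) fall within 1.2 Mb of each other. Elane (ENSMUSG00000020125) is at chr10:79886247-79888215 and Mpo (ENSMUSG00000009350) at chr11:87793581-87804413, both on the plus strand. Irf8 (ENSMUSG00000041515) is at chr8:120736358-120756694 on the plus strand.

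The sequence upstream of 4 members is shown because the granule genes moved together over strains while Irf8 moved less closely with them. The sequences come from the RefSeq promoter table (GRCm38.p6), 5′ to 3′ on the gene's own strand, and end just before the annotated gene. Capitals mark matches, on either strand, to C/EBP-type TTNNGNAA, PU.1-type GAGGAAGT, RUNX-type TGTGGT or GAS-type TTCNNNGAA, which is the STAT-type palindrome.
S100a9 (chr3:90695722-90695971, minus strand): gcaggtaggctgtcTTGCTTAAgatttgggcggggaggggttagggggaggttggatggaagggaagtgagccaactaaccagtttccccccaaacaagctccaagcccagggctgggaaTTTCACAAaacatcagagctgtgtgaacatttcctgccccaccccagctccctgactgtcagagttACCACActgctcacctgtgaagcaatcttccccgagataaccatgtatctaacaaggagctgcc
Ngp (chr9:110419558-110419746, plus strand): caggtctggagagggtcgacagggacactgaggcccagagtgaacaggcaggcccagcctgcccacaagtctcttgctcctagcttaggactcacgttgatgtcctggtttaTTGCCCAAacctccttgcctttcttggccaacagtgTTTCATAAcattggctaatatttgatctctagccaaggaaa
Ltf (chr9:111019042-111019270, plus strand): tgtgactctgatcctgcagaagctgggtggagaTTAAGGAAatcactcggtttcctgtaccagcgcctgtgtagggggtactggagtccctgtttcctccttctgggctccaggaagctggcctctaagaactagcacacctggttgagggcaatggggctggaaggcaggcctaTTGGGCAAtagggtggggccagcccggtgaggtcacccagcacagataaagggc
Irf8 (chr8:120736108-120736357, plus strand): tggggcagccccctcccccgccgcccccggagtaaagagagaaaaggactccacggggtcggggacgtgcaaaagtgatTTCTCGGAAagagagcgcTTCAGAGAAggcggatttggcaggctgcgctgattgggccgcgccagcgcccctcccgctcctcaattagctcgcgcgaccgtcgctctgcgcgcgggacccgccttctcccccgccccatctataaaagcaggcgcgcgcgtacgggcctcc

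In the 250 bases before the RefSeq start, the C/EBP-type motif matched 1 time in S100a8, 2 times in S100a9, 3 times in Ngp and 2 times in Ltf. Of the 3 matches of Ngp, 1 lies past the end of the printed stretch. The motif had no match for Camp, Mpo, Elane or Irf8, and 36.8% of all 32851 promoters held it. The PU.1-type motif, in 2.44% of promoters, matched 1 time each in S100a8, Mpo and Elane. The RUNX-type motif (14% of promoters) matched 1 time in S100a9. The GAS-type motif (7.02% of promoters) matched 2 times upstream of Irf8, 171 and 153 bases before the start, and not in the table's other Irf8 window. Matches of different motifs in these 8 genes did not share a position. A match of letters is a description and not a site of binding.

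Irf8 was the member called in the diet contrasts. In C57BL/6J mice on 2% iron its level was 12.1, 11.6 and 10.8 CPM in replicates 1 to 3. On 50 ppm it was 4.56, 5.90 and 6.46 CPM, on 500 ppm 3.87, 6.35 and 6.04 CPM, and on chow 4.89, 5.03 and 7.56 CPM. Every 2% iron mouse lay above every mouse of those 3 diets. On 2% iron with cellulose as the fibre source, Irf8 was 9.26, 14.1 and 15.02 CPM, which overlapped the 2% iron group.

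Irf8 was higher on 2% iron than on 50 ppm by 1.02 on the log2 scale (SE 0.23, adjusted p = 0.00981, edgeR quasi-likelihood test with Benjamini-Hochberg adjustment). It was 1 of 6 tested members called in that contrast, where 15.7% of all genes were called (8.52% higher and 7.17% lower). Against 500 ppm the log2 difference was 1.07 (SE 0.23, adjusted p = 0.00897), with 11.3% of all genes called (6.59% higher and 4.75% lower). Against chow it was 0.97 (SE 0.23, adjusted p = 0.0083), with 22.8% called (11.9% higher and 10.9% lower). These contrasts share the 2% iron mice and are not independent of each other. The call against 50 ppm was lost without 50 ppm replicate 1 (log2 difference 0.89, adjusted p = 0.0531).

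In TPM, the deposited unit that also corrects for transcript length, Irf8 was 4.06 to 6.65 on 2% iron and 2.55 to 3.63 on 50 ppm, again without overlap. limma on log2(TPM + 1) did not call the difference, at 0.65 on that scale (adjusted p = 0.158). It was 0.73 against 500 ppm (adjusted p = 0.133) and 0.84 against chow (adjusted p = 0.0501).

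Irf8 did not pass the test between the lower-iron diets. The log2 difference was -0.04 for 500 ppm against 50 ppm (SE 0.24, edgeR adjusted p = 1) and 0.06 for chow against 50 ppm (SE 0.24, adjusted p = 0.971). Between 2% iron with cellulose and 2% iron it was 0.15 (SE 0.22, adjusted p = 0.811).

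S100a9, one chain of calprotectin, was 4.31, 1.78 and 1.62 CPM on 2% iron. It was 0.0969, 0.193 and 0.414 CPM on 50 ppm, and 0.752, 0.280 and 0.145 CPM on chow. On 500 ppm it was 0.0861, 2.28 and 0.216 CPM, so that replicate 2 stood within the 2% iron range and the other 2 mice with the 50 ppm group. The label of that replicate 2 is open to question. Its counts of S100a8, S100a9, Ngp and Ltf were 30, 47, 31 and 19. The panel mouse of BXD19/TyJ, on 2% iron, had 29, 48, 31 and 19. For Camp, Mpo, Elane and Irf8 the counts were 8, 49, 12 and 131, beside 8, 50, 12 and 130 in BXD19/TyJ. The libraries held 20357169 and 20572879 counts, each the deepest of its study. Whether they are 1 library under 2 labels was not tested. With cellulose, S100a9 was 19.4, 3.00 and 2.62 CPM. All 6 mice on 2% iron, the cellulose group among them, were above all 50 ppm and chow mice.

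S100a8, the other chain, was also highest in the cellulose group. It was 3.15, 1.07 and 0.597 CPM on 2% iron and 0.0969, 0.290 and 0.166 CPM on 50 ppm. On chow it was 0.0940, 0.0932 and 0.582 CPM. On 500 ppm, replicate 2 was at 1.45 CPM and the other 2 mice at 0, which allows up to 3 counts in each. With cellulose it was 12.3, 1.24 and 1.39 CPM.

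Among the secondary granule genes, Ltf was 1.99, 0.267 and 1.11 CPM on 2% iron and had no count in any 50 ppm mouse. Ngp was 2.16, 0.0889 and 0.512 CPM on 2% iron, 0.166 CPM in 1 of 3 mice on 50 ppm and at 0 in the other 2. Ngp had no count in any chow mouse. With cellulose, Ngp was 19.6, 1.15 and 2.54 CPM and Ltf was 10.9, 0.618 and 1.16 CPM. Camp had 9 counts over the 3 mice on 2% iron, 1 on 50 ppm, 0 on chow and 63 with cellulose, of which 54 were in replicate 1.

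Of the primary granule genes, Mpo was 1.16, 0.356 and 0.341 CPM on 2% iron. On 50 ppm it was 0.0967 and 0.0829 CPM in 2 mice and at 0 in the third. With cellulose it was 11.1, 0.706 and 4.39 CPM. On 500 ppm, Mpo was 2.37 CPM in replicate 2 and 0.0861 and 0.0719 CPM in the other 2 mice. Elane had 6 counts over 3 mice on 2% iron, 3 on 50 ppm, 14 on 500 ppm, 6 on chow and 47 with cellulose. Single mice held most of these: 12 in replicate 2 on 500 ppm, 5 in replicate 3 on chow and 36 in replicate 1 with cellulose.

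**Figure D1:**
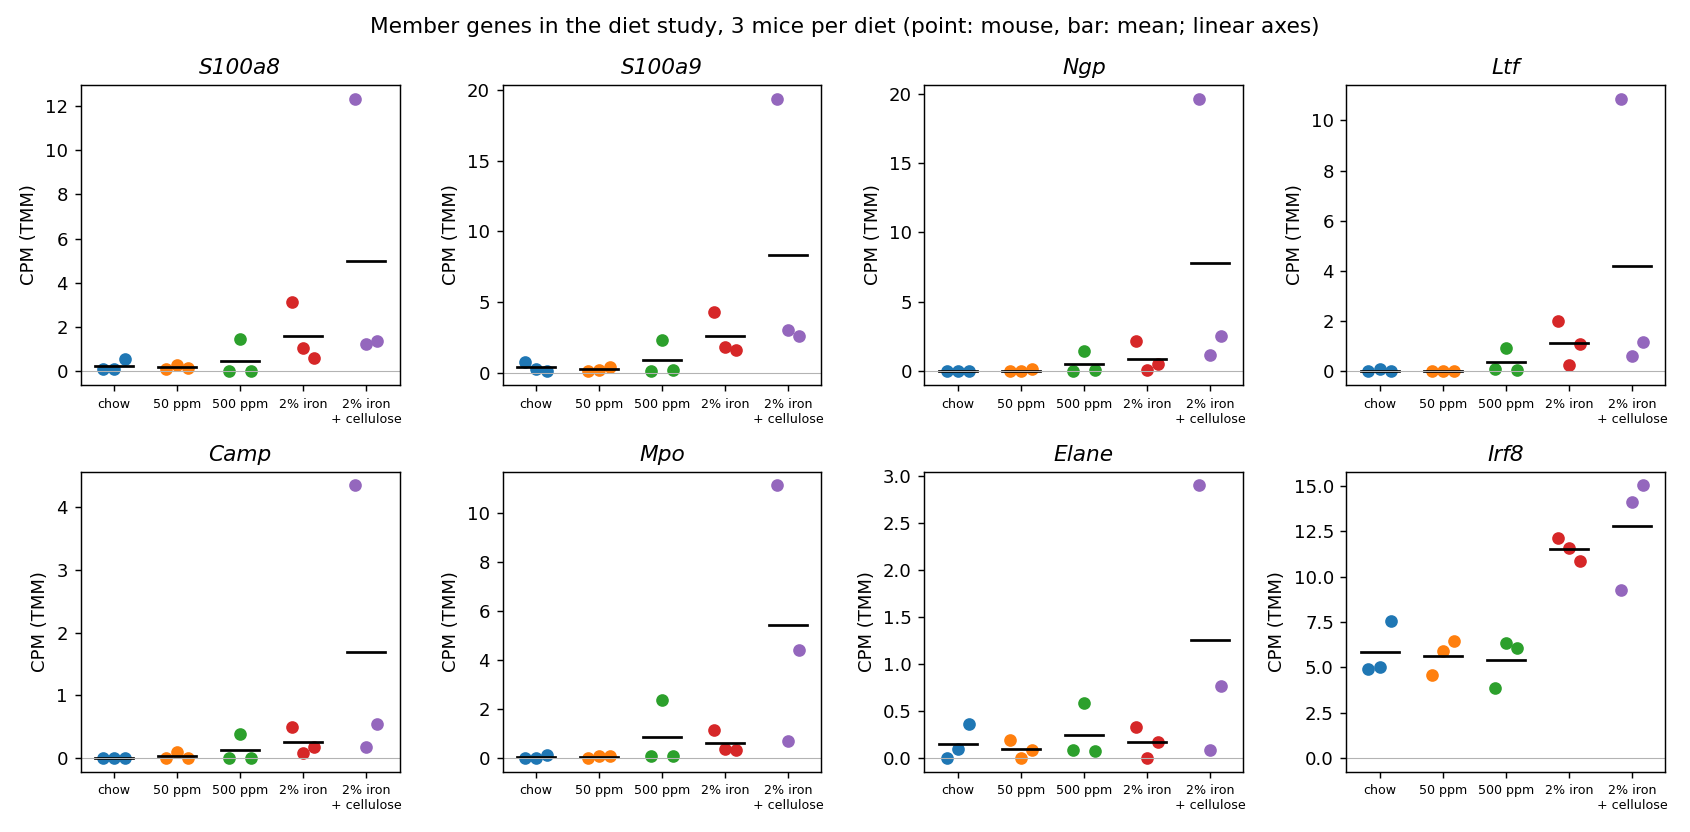
Levels of the 8 members in the 15 mice of the diet study, in CPM on linear axes that differ between panels; each point is a mouse and each bar the mean of 3 mice. Irf8 lies at 10.8 to 12.1 CPM on 2% iron and at 3.87 to 7.56 CPM on the 3 lower-iron diets, while replicate 1 of the cellulose group, drawn first of its group, is the highest mouse for all 7 granule genes.

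None of the 5 granule genes tested passed the threshold on 2% iron against 50 ppm. The log2 difference was 3.36 for S100a9 (SE 1.23, edgeR adjusted p = 0.0823) and 3.07 for S100a8 (SE 1.47, adjusted p = 0.179). It was 3.73 for Ngp (SE 2.20, adjusted p = 0.282) and 3.16 for Mpo (SE 1.86, adjusted p = 0.276). By counts pooled over each group, Ltf was at least 12.5-fold higher, set against a floor of 3 counts over the 50 ppm group (adjusted p = 0.0900). Of its 40 counts on 2% iron, 24 came from replicate 1 and 3 from replicate 2. The standard errors of S100a8, Ngp and Mpo were above 1.4 log2 units, which exceeds the whole difference of Irf8. DESeq2 called S100a9 (adjusted p = 0.0341) and Ltf (adjusted p = 0.0123) in this contrast, besides Irf8.

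By rank alone, the mice on 2% iron lay above all 50 ppm mice for 5 of 8 members: S100a8, S100a9, Ltf, Mpo and Irf8. Such an order held for 19.2% of the genes tested. Against chow it held for 7 of 8 members, all but Elane, and for 20.3% of all genes. Against 500 ppm it held for Irf8 alone, and for 16% of all genes. With cellulose against 50 ppm it held for 7 of 8, all but Elane, and for 22.4% of all genes. It held for no member with cellulose against 2% iron (8.08% of all genes) and for Ltf alone on 500 ppm against 50 ppm (3.3%). On 2% iron against chow, by counts pooled over each group, Ngp was at least 11-fold higher and Camp at least 3.01-fold higher. Each was set against a floor of 3 counts over the chow group. Replicate 1 held 26 of the 33 Ngp counts and 6 of the 9 Camp counts on 2% iron. Ngp did not pass the edgeR test against chow (adjusted p = 0.156), and neither did Ltf (0.0954), S100a9 (0.0981), S100a8 (0.207) or Mpo (0.231).

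No member was called by edgeR on 500 ppm against 50 ppm, where 0.0% of all genes were called. Mpo alone had an unadjusted p under 0.05 (log2 difference 3.75, SE 1.70, adjusted p = 1), and DESeq2 also called no member. The higher mean on 500 ppm came from replicate 2, which was the highest of its group for all 7 granule genes. That library was also the deepest of the diet study, at 20357169 counts. Its member counts and depth lay near those of the BXD19/TyJ panel mouse on 2% iron, so its label is open to question. The parts of depth and of a possible wrong label were not tested. The Irf8 level of 500 ppm replicate 2, 6.35 CPM, lay among the other mice of the lower-iron diets. Without that library, Irf8 on 2% iron against 500 ppm differed by 1.20 on the log2 scale (edgeR adjusted p = 0.00843). On chow against 50 ppm, edgeR called no member, none had an unadjusted p under 0.05, and DESeq2 called none, with 0.391% of all genes called by edgeR (0.265% higher and 0.125% lower).

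The group on 2% iron with cellulose gave no call in the members against the 2% iron group. The log2 differences from 2% iron were 3.10 for Mpo (SE 1.04, adjusted p = 0.240), 3.05 for Ngp (SE 1.19, adjusted p = 0.315), 1.69 for S100a9 and 1.62 for S100a8. Mpo and Ngp had an unadjusted p under 0.05, DESeq2 called no member, and edgeR called 0.0811% of all genes (0.00737% higher and 0.0737% lower). Leaving out cellulose replicate 1, they were 2.03 for Mpo, 0.995 for Ngp, 0.12 for S100a9 and -0.29 for S100a8. That mouse was the highest of its group for all 7 granule genes and the lowest for Irf8.

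Set against 50 ppm in place of the 2% iron group, a comparison added after the data were seen, the cellulose group gave a call for all 6 tested members. The background there was 29.7% of all genes. Fibre source may differ between these groups as well as iron, and the labels do not settle it. S100a9 was higher by 5.05 on the log2 scale (SE 1.15, adjusted p = 0.00552), Mpo by 6.26 (SE 1.48, adjusted p = 0.00667) and Irf8 by 1.18 (SE 0.23, adjusted p = 0.00234). By counts pooled over each group, with a floor of 3 counts for 50 ppm, Ltf was at least 46.6-fold higher (edgeR adjusted p = 0.00959). Of its 157 cellulose counts, 135 came from replicate 1, so the fold is not a lower bound for each mouse. Ngp (log2 difference 6.78, adjusted p = 0.0139) and S100a8 (4.69, adjusted p = 0.0196) were also called. Without cellulose replicate 1, S100a8 (adjusted p = 0.155) and Ngp (0.0701) were lost, and S100a9 (0.0300), Ltf (0.0343), Mpo (0.0289) and Irf8 (0.00176) remained. S100a8 was also lost without 50 ppm replicate 1 (0.0703) or replicate 3 (0.0626), and Ngp without 50 ppm replicate 1 (0.0542).

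Other neutrophil and myeloid genes were read from lists fixed beside the members. On 2% iron against 50 ppm, 3 of the 6 tested genes of the secondary and tertiary granule list were called higher and 1 lower. Lcn2, which binds bacterial siderophores and is also made by hepatocytes, rose by 2.76 on the log2 scale (SE 0.71, adjusted p = 0.0187). Cybb (1.95) and Lyz2 (1.32), which macrophages also express, were higher, and Itgb2l (-1.38, adjusted p = 0.00618) was lower. Of 10 tested genes of mature neutrophils, 3 were higher: Csf3r, the receptor for G-CSF (1.53, SE 0.32, adjusted p = 0.00676), the formyl peptide receptor Fpr1 (1.91) and Wfdc17 (2.08). Of 2 tested primary granule genes, Serpinb1a, an inhibitor of neutrophil proteases, was lower by 2.33 log2 units (adjusted p = 0.00469).

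The myeloid transcription factors split in direction. Of 13 tested, 3 were higher: Spi1, which encodes PU.1 (log2 difference 1.66, adjusted p = 0.00742), Irf7 (1.80) and Zeb2 (0.76). Cebpa, a driver of granulocyte commitment that hepatocytes express at high level, was lower (-0.40, adjusted p = 0.0321). Cebpe is needed for secondary granules. Its level was 3.15 ± 0.650 CPM (mean ± SD of 3 mice) on 2% iron beside 3.01 ± 0.838 CPM for the 50 ppm mice, and it was not called (log2 difference 0.06, adjusted p = 0.936). The median log2 difference of the 13 was 0.71, beside 0.01 for all genes tested.

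Markers of resident macrophages moved with Irf8. All 12 Kupffer cell genes were called higher on 2% iron against 50 ppm, with a median log2 difference of 1.63. Clec4f, the Kupffer cell lectin, rose by 1.62 (SE 0.21, adjusted p = 0.000534) and Csf1r, the receptor for M-CSF, by 1.48. Their summed level was 734 to 794 CPM on 2% iron, 749 to 1114 CPM with cellulose, 187 to 305 CPM on 50 ppm, 175 to 336 CPM on 500 ppm and 218 to 261 CPM on chow. None of the 12 was at 0 in a group. Of 8 tested genes of conventional dendritic cells, 3 were higher: Clec9a (0.77), Wdfy4 (1.06) and Naaa (0.78). Their list sum was 29.1 to 34.2 CPM on 2% iron and 20.6 to 22.6 CPM on 50 ppm. Of 7 tested erythroid genes, 5 were higher and 1 lower, with sums of 325.5 to 482 CPM on 2% iron and 71.3 to 114 CPM on 50 ppm. The part of these cell types in the Irf8 difference was not tested.

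Over the 114 strains on 2% iron, the granule genes had a wide range and Irf8 a narrow one. S100a9 ran from 0.0850 CPM in SWR/J to 43.7 CPM in BXH2/TyJ, with a median of 1.72. S100a8 ran from 0 in BXD31/TyJ to 36.7 CPM in BXD27/TyJ, with a median of 1.26. The levels at the 90th and 10th percentiles differed 40.2-fold for S100a9 and 76.4-fold for S100a8, but 2.08-fold for Irf8. Irf8 ran from 4.96 CPM in CBA/J to 22.3 CPM in BXD33/TyJ, with a median of 10.03 CPM, and no strain was under 1 CPM.

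The secondary and primary granule genes had no count in many strains. Ngp had a median of 0.647 CPM and a maximum of 43.5 CPM in BXH2/TyJ. Ltf had a median of 0.499 CPM and a maximum of 24.4 CPM, and Camp 0.138 and 9.95 CPM, both highest in BXD16/TyJ. Mpo had a median of 0.463 CPM and a maximum of 41.4 CPM, and Elane 0.0895 and 10.2 CPM, both highest in BXD42/TyJ. No count was seen in 17 strains for Ngp, 22 for Ltf, 38 for Camp, 8 for Mpo and 33 for Elane, where a count of 0 allows up to 3 counts. Compared per transcript length, the median TPM was 5.50 for S100a9, 4.83 for Irf8, 4.45 for S100a8, 1.07 for Ltf and 0.633 for Ngp.

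The spread between strains was numerically larger than the spread within diet groups pooled over the 5 diets, without a test. This is not a like comparison for the granule genes, because the panel was all on 2% iron. Ngp had at most 2 counts per mouse on chow and 50 ppm, where the prior count narrows the SD. It ran from 0.0889 to 2.16 CPM on 2% iron and from 1.15 to 19.6 CPM with cellulose. The diet groups also include 500 ppm replicate 2, whose label is open to question. It had 31 counts of Ngp, beside 0 and 1 in replicates 1 and 3. The SD of log2 CPM, with a prior count of 2, was 2.34 for Ngp over strains and 1.44 within the diet groups. It was 1.85 and 1.19 for S100a9, 2.02 and 1.30 for Mpo, and 0.42 and 0.31 for Irf8. With 1 mouse per strain, the strain and the mouse cannot be told apart. The 2 mice of 129X1/SvJ had 1.04 and 0.214 CPM of S100a9 (13 and 3 counts), and 7.31 and 6.08 CPM of Irf8.

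**Figure D2:**
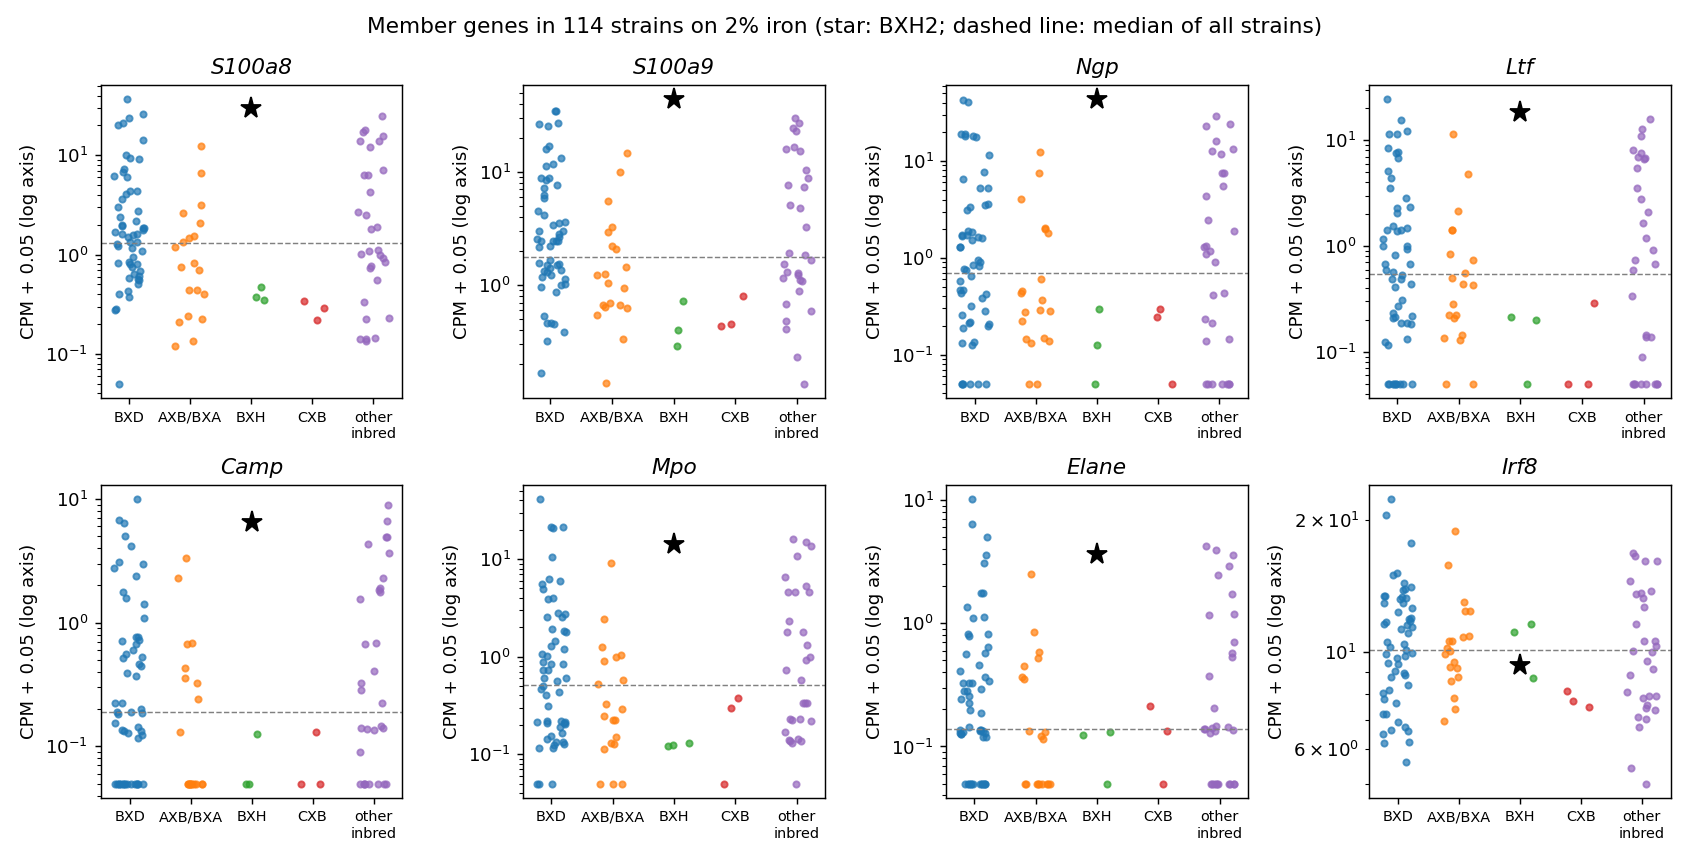
Levels of the 8 members in 114 strains fed 2% iron, as CPM + 0.05 on log axes, by strain family; each point is a strain, the star is BXH2/TyJ and the dashed line the median of all strains. BXH2/TyJ stands far above the other 3 BXH strains for the 7 granule genes and among them for Irf8, at 9.26 CPM.

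A few strains held the highest levels of every granule gene. The 10 highest strains of each of the 7 genes came to 17 different strains, where 70 would be possible. Of them, 6 were among the 10 highest for all 7 genes: BXD42/TyJ, BXH2/TyJ, BXD16/TyJ, BXD55/RwwJ, LG/J and BTBR T<+> tf/J. Their Irf8 levels ranged from 9.26 CPM in BXH2/TyJ, rank 70 of 114, to 20.5 CPM in BXD55/RwwJ, rank 2. BXD33/TyJ, the strain with the most Irf8, had 0.893 CPM of Ngp, rank 51.

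Pairs of granule genes were closely correlated over strains. Ltf fell into 2 clusters of strains by a mixture rule set after its values were seen, so no pooled coefficient is given for it. Among the other 6 granule genes, the 15 pairs had Pearson's r of 0.822 to 0.963 and Spearman's rho of 0.777 to 0.950 over 114 strains. The largest permutation p, adjusted over all pairs, was 1e-05, the smallest these 100000 permutations can give. Leaving out the 2 strains farthest from the median gave r of 0.810 to 0.960, and leaving out BXH2/TyJ gave 0.814 to 0.961. Within families, r was 0.798 to 0.954 in BXD, 0.626 to 0.924 in AXB/BXA and 0.860 to 0.981 in the other inbred strains. The closest pair was S100a8 with S100a9, at r 0.963. Mpo with Elane, both of primary granules, had r of 0.927, and Ngp with Camp, both of secondary granules, 0.945.

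Irf8 was less closely correlated with the granule genes. Its 6 pairs had r of 0.449 to 0.544 and rho of 0.457 to 0.563 (largest adjusted permutation p = 1e-05). Without the 2 farthest strains r was 0.424 to 0.560. Within BXD it was 0.430 to 0.557 and within the other inbred strains 0.641 to 0.754. Within the 20 AXB/BXA strains it was 0.185 to 0.275, and none of the 6 pairs passed there (largest adjusted permutation p = 0.441).

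For Ltf, 72 strains formed a low cluster (0 to 0.959 CPM) and 42 a high cluster (1.11 to 24.4 CPM). Its r with the other granule genes was 0.483 to 0.720 in the low cluster and 0.755 to 0.939 in the high cluster. With Irf8 it was 0.422 in the low cluster (adjusted permutation p = 0.000248) and 0.187 in the high cluster (adjusted permutation p = 0.234).

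**Figure D3:**
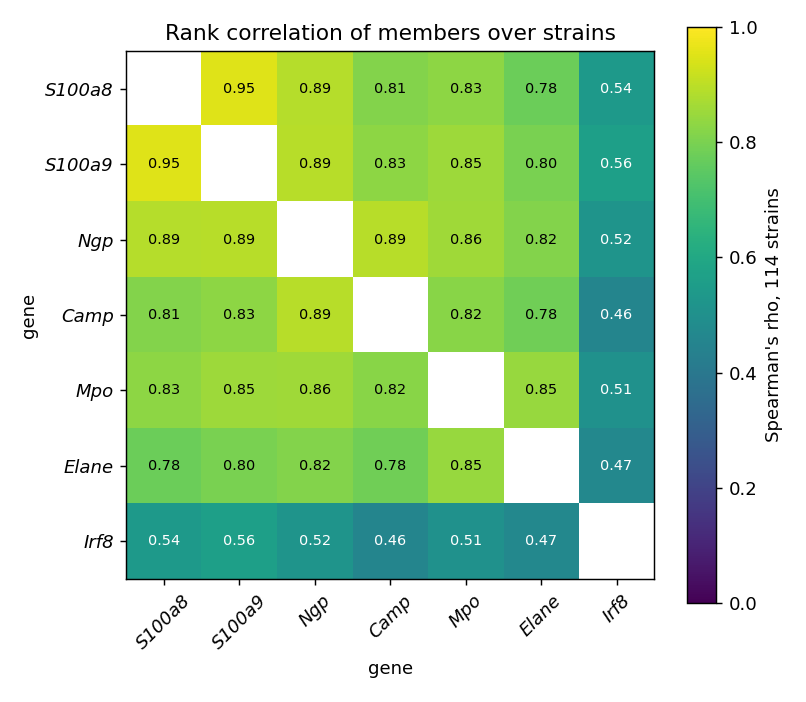
Spearman's rho between members over 114 strains, for the 7 genes without clusters; colour and number give rho. The granule pairs range from 0.78 to 0.95 and the pairs with Irf8 from 0.46 to 0.56.

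Within the granule group, the balance of primary to secondary granule transcripts differed between strains. The ratio of Mpo to Ngp in CPM, which is compared only between strains, was computed in the 37 strains with both above 1 CPM. It ran from 0.158 in NOD/ShiLtJ to 4.71 in BXD40/TyJ, with a median of 0.619. BXD42/TyJ had 41.4 CPM of Mpo and 40.2 CPM of Ngp, a ratio of 1.03, while BXD16/TyJ had 10.4 and 42.9 CPM, a ratio of 0.242. In BUB/BnJ the ratio was 2.98, with 16.1 CPM of Mpo and 5.43 CPM of Ngp. BXH2/TyJ had a ratio of 0.326, the sixth lowest. These are single mice, and no error can be set beside the ratios.

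**Figure D4:**
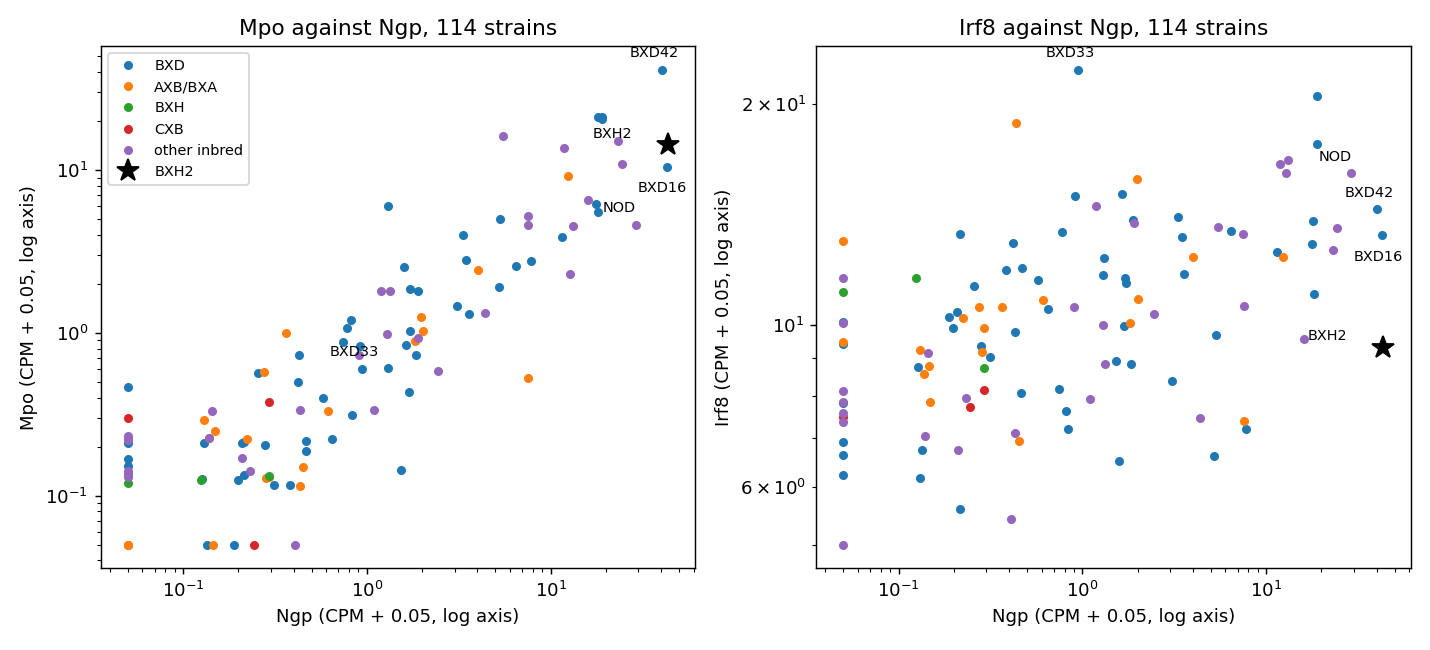
Mpo (left) and Irf8 (right) against Ngp in 114 strains, as CPM + 0.05 on log axes; colours are families and the star is BXH2/TyJ. Mpo rises with Ngp over the whole range, while BXH2/TyJ, highest for Ngp at 43.5 CPM, has less Irf8 (9.26 CPM) than the strains next to it, BXD16/TyJ (13.2 CPM) and BXD42/TyJ (14.3 CPM).

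The 10 genes most like the mean of the 7 granule genes over strains were ranked by Spearman's rho. Cd177, a surface protein of neutrophils, had rho 0.835, Retnlg 0.832, the collagenase Mmp8 0.8293 and Ctsg, the primary granule protease cathepsin G, 0.825. They were followed by Ppbp (0.792), Prkar2b (0.776), Thbs1 (0.770), Gp5 (0.764), Mmp9 (0.762) and Tubb1 (0.761). Ppbp, Gp5 and Tubb1 are genes of platelets and megakaryocytes. Those 3, with Prkar2b and Thbs1, were highest in BUB/BnJ (Ppbp 70.3 CPM), a strain that ranked 4 of 114 for Elane, 5 for Mpo, 19 for Ltf and 20 to 27 for S100a8, S100a9, Ngp and Camp.

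The 10 genes most like Irf8 over strains were led by Nckap1l (rho 0.871), Plekho2 (0.869), Laptm5 (0.864), Inpp5d (0.862) and Ppp1r18 (0.854). Dock2 (0.853), Iqgap1 (0.849), Itgb2 (0.847), Ano6 (0.845) and Msn (0.841) followed. Nckap1l and Dock2 control the actin cytoskeleton of blood cells, and Itgb2 is the beta chain of the leukocyte integrins. S100a9, at rho 0.563, ranked 528 of 15695 genes by likeness to Irf8.

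Summed marker lists, compared with S100a9 and Irf8 after the data were seen (32 relations over 114 strains), differed in sign and size. Irf8 had r of 0.811 and rho of 0.825 with the Kupffer cell sum, and r of 0.725 and rho of 0.753 with conventional dendritic cells (adjusted permutation p = 2.3e-05 for each r, the smallest reached). Within families its r with the Kupffer cell sum was 0.821 in BXD, 0.691 in AXB/BXA and 0.896 in the other inbred strains. S100a9 had r of 0.777 with the primary granule sum, 0.651 with the secondary and tertiary granule sum and 0.617 with the proliferation sum. Its r was 0.525 with the acute phase, 0.513 with the monocyte, 0.509 with the erythroid and 0.507 with the Kupffer cell sum (adjusted permutation p = 2.3e-05 for each). The erythroid relation was 0.545 in BXD and 0.197 in AXB/BXA. Irf8 did not pass with the sums of erythroid (r 0.163, adjusted permutation p = 0.0951), acute phase (0.107), mature neutrophil (0.0792), transcription factor (-0.00338) or plasmacytoid dendritic cell genes (-0.0395). Negative relations that passed were those of S100a9 with plasmacytoid dendritic cell (r -0.397), transcription factor (-0.287) and hepatocyte genes (-0.249), and of Irf8 with hepatocyte genes (-0.348). Some sums rest largely on single genes. By medians of the strains other than BXH2/TyJ, Bst2 was 73.1 CPM beside a plasmacytoid dendritic cell sum of 103.6 CPM. Wfdc21 was 216 CPM beside a mature neutrophil sum of 292 CPM, and Cebpa 400 CPM beside a transcription factor sum of 906.5 CPM. Hp was 2697 CPM beside a secondary and tertiary granule sum of 2842 CPM, and Fn1 3622 CPM beside a monocyte sum of 3666 CPM. Relations with these sums may reflect those genes more than the lists. Without the 2 farthest strains, r was 0.818 for Irf8 with Kupffer cells and 0.490 for S100a9 with the erythroid sum. The part of these cell types in the members' levels was not tested.

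BXD strains, from C57BL/6J and DBA/2J, were compared with AXB/BXA strains, from A/J and C57BL/6J, with the strain as the replicate. The median of S100a9 was 2.41 CPM in 56 BXD strains (range 0.117 to 34.7) and 1.09 CPM in 20 AXB/BXA strains (range 0.0867 to 14.8). Mpo had medians of 0.619 and 0.220 CPM, and Irf8 of 10.4 and 10.1 CPM. No member was called by edgeR, where 11.6% of all genes were called (6.62% higher and 5.02% lower in BXD). The log2 differences were 1.82 for Mpo (SE 0.67, adjusted p = 0.0630), 1.27 for S100a9 (SE 0.48, adjusted p = 0.0735), 1.35 for S100a8 (SE 0.52, adjusted p = 0.0813) and 1.46 for Ngp (adjusted p = 0.145). For Irf8 it was 0.03 (SE 0.11, adjusted p = 0.890). A total of 4 members had an unadjusted p under 0.05, and DESeq2 called 3: Mpo (adjusted p = 0.0278), S100a9 (0.0329) and S100a8 (0.0377). Of the fixed neutrophil lists, Csf3r, Cxcr2, Mxd1, Fpr2 and Wfdc17 of 10 tested mature genes were called higher in BXD. Prtn3 of 2 primary granule genes and Lcn2 of 7 secondary and tertiary granule genes were also higher. Of other lists, 5 of 12 acute phase genes (Saa2, Orm1, Orm2, Lcn2 and Itih3) and 2 of 7 erythroid genes (Hba-a2 and Slc4a1) were higher, and no gene of these 2 lists was lower. Their part in the members' differences was not tested.

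BXH2/TyJ is a recombinant inbred strain from C57BL/6J and C3H/HeJ, known to carry a recessive mutation in Irf8 and to accumulate myeloid cells. The panel held 1 mouse of it, at 15419215 counts, and the counts do not show alleles. S100a9 was 43.7 CPM (95% exact Poisson interval 40.6 to 46.96), the highest of 114 strains and 26.9-fold the median of the other 113. S100a8 was 30.2 CPM (interval 27.6 to 32.9), rank 2 and 24.4-fold the median. Intervals cover counting error only.

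Ngp was 43.5 CPM in BXH2/TyJ (737 counts, interval 40.4 to 46.7), rank 1 and 72.4-fold the median. The next strain, BXD16/TyJ at 42.9 CPM, lay within that interval. Ltf was 18.2 CPM (rank 2, 37.5-fold the median), Camp 6.43 CPM (rank 5, 46.8-fold), Mpo 14.2 CPM (rank 7, 31.7-fold) and Elane 3.60 CPM (rank 6, 40.6-fold). All 7 were more than 4-fold above the median, as were 2.07% of all genes, and 2 of 8 members were highest in BXH2/TyJ, as were 5.07%.

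Irf8 RNA itself was 9.26 CPM in BXH2/TyJ (157 counts, interval 7.87 to 10.8), rank 70 and 0.922-fold the median of the other strains. It was 11.5 CPM in BXH10/TyJ, 11.1 CPM in BXH14/TyJ and 8.69 CPM in BXH8/TyJ. The parental strains had 14.5 CPM (C57BL/6J) and 7.89 CPM (C3H/HeJ). So BXH2/TyJ lay between its parents and among its sister strains for Irf8.

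The sister strains did not share the granule levels. S100a9 was 0.675 CPM in BXH10/TyJ, 0.350 CPM in BXH14/TyJ and 0.244 CPM in BXH8/TyJ. It was 4.996 CPM in C57BL/6J and 1.18 CPM in C3H/HeJ. Ngp was 0.0750, 0 and 0.244 CPM in the 3 sisters, and no granule gene was above 0.675 CPM in any of them.

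Other neutrophil genes in BXH2/TyJ are given without a test. Of the 11 secondary and tertiary granule genes, 5 were more than 4-fold above the median. Chil3, a chitinase-like protein of myeloid cells, was 49.2 CPM, the highest of 114 strains, beside at most 22.8 CPM elsewhere. Lcn2 was 861 CPM (rank 4), Cd177 5.13 CPM (rank 2), Mmp8 4.31 CPM (rank 3) and Mmp9 6.78 CPM (rank 3). At the low end of that list were Cybb (16.1 CPM, rank 107) and Lyz2 (32.02 CPM, rank 109), which macrophages also express, and Itgb2l ranked 62. All 4 genes of the primary granule list that passed the filter were more than 4-fold above the median, with a median log2 difference of 2.43, beside 0.00 for all genes. Of 13 mature neutrophil genes, 2 were (Retnlg at 5.54 CPM, rank 4, and Asprv1), and the median was 0.46. Low mature genes were G0s2 (2.89 CPM, the third lowest of the strains), Il1b (rank 108) and Wfdc17 (rank 98). The sum of the myeloid transcription factors ranked 110 of 114, with a median log2 difference of -0.70. Zeb2 ranked 113, Cebpa was the third lowest of the strains, Irf4 and Irf7 each ranked 107 and Id2 ranked 106, and Irf1 (7.31 CPM) and Irf5 (3.01 CPM) were the lowest. At the other end, Runx1 was 11.6 CPM, the highest of all strains, Klf4 (8.61 CPM) and Cebpd (36.7 CPM) each ranked 2, and Cebpe ranked 36 at 0.826 CPM.

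Summed markers of several lymphoid and dendritic cell types stood at the low end. The conventional dendritic cell sum was 18.6 CPM, rank 113 of 114 (range of the others 15.4 to 46.8), with Naaa the lowest of all strains at 1.59 CPM. In that list Clec9a (rank 67) and Xcr1 (rank 72), of type 1 dendritic cells, lay near the median. The plasmacytoid dendritic cell sum was 52.5 CPM, also rank 113, with Bst2 the lowest at 24.4 CPM. Bst2 and Tcf4 (21.6 CPM, rank 85) were the largest parts of that sum. The other genes of the list were mixed: Spib ranked 111, Siglech 96, Ccr9 85, Klk1 63, Cox6a2 50 and Ly6d 40. The B cell sum was 8.26 CPM, rank 101, and Pax5 had no count. The T and NK cell sum was 3.13 CPM, rank 111. Ccr2, of inflammatory monocytes, was the lowest at 0.767 CPM, whereas Ly6c2 ranked 5 at 3.48 CPM. Being the lowest held for 3.48% of all genes.

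Kupffer cell genes were low as a group, rank 106 by their sum of 368 CPM, beside a median of 628.5 CPM. Clec4f (32.8 CPM), Timd4 (2.65 CPM) and Cd5l (51.6 CPM) were the lowest of all strains, while Marco was 63.0 CPM and ranked 17. Erythroid genes were high, rank 11 by their sum of 1226 CPM, and so were proliferation genes, rank 7 at 70.2 CPM. The hepatocyte sum ranked 103. The part of these differences in the granule gene levels was not tested.

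By size over all genes, the mouse also differed in genes outside the blood lineages. Its largest excesses over the median, after Chil3 and Ngp, included A2m (11.6 CPM beside a median of 0.0867), Ffar4 (33.02 beside 0.693), Slpi (45.5 beside 1.36), Areg (4.72 beside 0) and Timp4 (9.32 beside 0.0837). Adm2, Itga2, Phf11c, Gsta1 and the erythroid anion exchanger Slc4a1 were in the same set. Among the largest deficits were hepatocyte genes: Serpina6 (0.413 CPM beside 175), Car3 (2.01 beside 306), Ces3a (3.48 beside 399.9), Ces3b (1.77 beside 131) and Dio1 (0.531 beside 67.4). Camk2b, Mup10, Mup3 and Sult2a8 were also there. Ces3a, Ces3b and Car3 were at 169 CPM or above in all 3 sister strains.

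**Figure D5:**
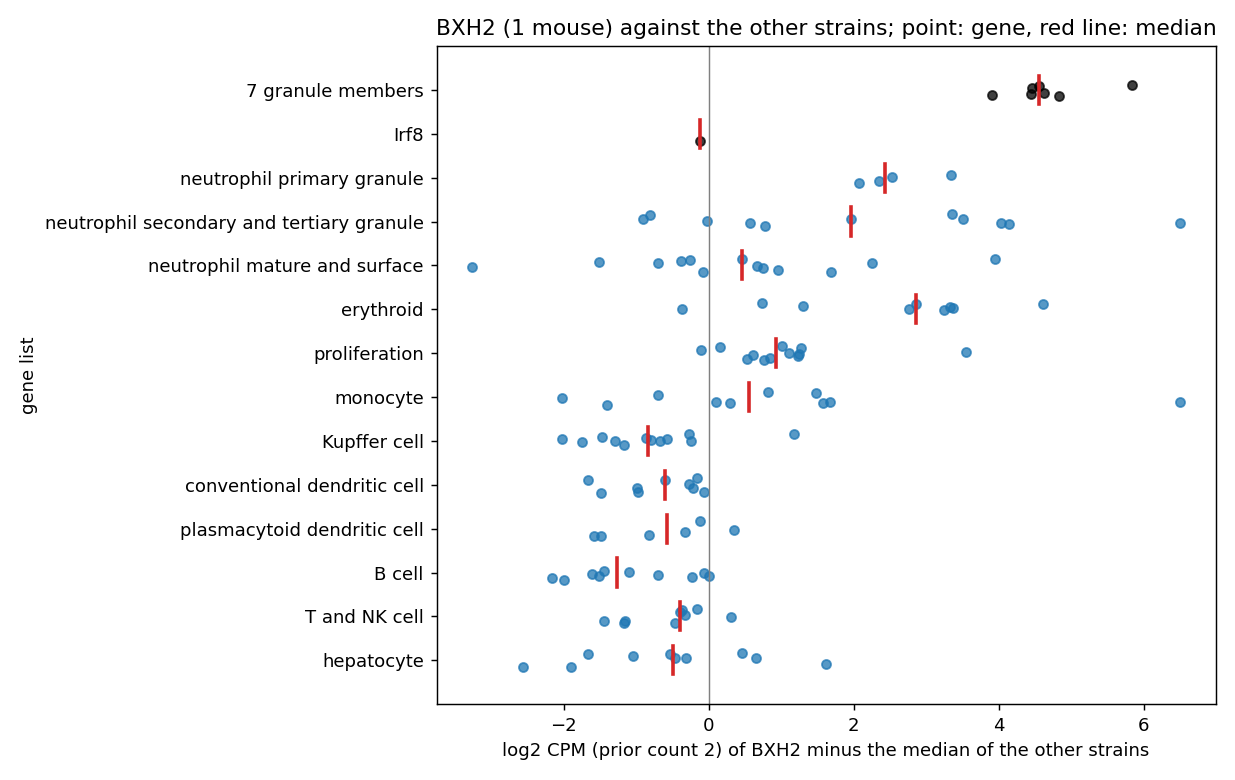
Difference of log2 CPM (prior count 2) between the BXH2/TyJ mouse and the median of the other 113 strains; each point is a gene that passed the filter and each red line the median of its list. The 7 granule genes lie between 3.91 and 5.84 and Irf8 at -0.12, with the Kupffer, dendritic and B cell lists mostly below 0.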

How the data were processed

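Liver RNA was sequenced from 15 mice of a diet study and 115 mice of a strain panel, with a stranded mRNA kit per the labels' protocols. The submitters' processing notes name kallisto 0.46 and mm10, and the strand setting, the annotation and the gene summing are not given in the sources used here. The authors deposited estimated counts per gene, unscaled, and TPM for the same genes and mice. Symbols and coordinates come from GENCODE M21 (GRCm38), which matched 34845 of 35274 diet identifiers and 35612 of 35711 panel identifiers.

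The design assumed whole counts, so the estimated counts were rounded. Groups were compared with edgeR 4.0.16 in R 4.3.3 (quasi-likelihood test, TMM factors, filterByExpr), with 1 joint fit of the 5 diets and a separate fit of BXD and AXB/BXA. P-values were adjusted over all genes tested by Benjamini-Hochberg, two-sided, at a threshold of 0.05. Correlations used log2 CPM with a prior count of 2 and 100000 two-sided permutations over strains (scipy 1.17.1). The 2 clusters of Ltf were called from a mixture of 2 normal distributions. Alternatives were DESeq2 1.42.0, limma 3.58.1 on log2(TPM + 1) and log2(TPM + 0.1), DESeq2-type factors, no filter, the compared groups alone and each mouse left out. The edgeR, DESeq2 and limma fits were tested on simulated data.

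The members and the 16 gene lists were chosen with earlier results of these data known. Genes named besides the members were the 10 most correlated with the granule mean and with Irf8, those with the largest BXH2/TyJ differences (the 15 highest and the 10 lowest, predicted genes left out, and 1 gene not reported here), and called genes of the neutrophil and transcription factor lists. Other list genes were named after their values were seen. Diet and panel tables were never pooled.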

Additional observations from a re-analysis of the deposited data

Results flagged for a closer look

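In the 4 BXH strains, 1 mouse each, BXH2/TyJ lay far from the other 3 for all 7 granule genes. Its levels were 30.2 CPM of S100a8, 43.7 CPM of S100a9, 43.5 CPM of Ngp, 18.2 CPM of Ltf, 6.43 CPM of Camp, 14.2 CPM of Mpo and 3.6 CPM of Elane. In each, the gap to the next strain was at least 0.977 of the whole range of the 4 strains. BXH2/TyJ and these genes were chosen with these levels known, so the gap is a description, not a test, and no chance rate applies to it. The 7 genes come from the same mouse and vary together, so they are not 7 separate observations. Irf8 did not stand apart, at 9.26 CPM beside 8.69 to 11.54 CPM.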

How the results depend on the processing

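The count of members called on 2% iron against 50 ppm was 1 (Irf8), 3 by DESeq2, 2 in a fit of those groups alone and 6 with the cellulose group in its place, and 0 to 1 when 1 mouse was left out. Against chow it was 1, 3 by DESeq2, 2 in the groups alone, 2 by limma on log2(TPM + 0.1) and 0 by limma on log2(TPM + 1). Against 500 ppm it was 1, and 0 by limma with either pseudocount. For BXD against AXB/BXA it was 0, and 3 by DESeq2. Uncalled log2 differences that changed sign, with their ranges over the fits with 1 mouse left out, were Irf8 on 500 ppm against 50 ppm (-0.18 to 0.13, 0.07 among them), Irf8 on chow against 50 ppm (-0.19 to 0.17, and -0.07 without 50 ppm replicate 1), and S100a8 (-0.29 to 2.58) and Ltf (-0.33 to 2.60) on cellulose against 2% iron, both lowest without cellulose replicate 1. limma gave -0.19 and -0.26 for Irf8 on chow against 50 ppm. The cause was not tested. The counts of correlated pairs (21) and of granule genes over 4-fold up in BXH2/TyJ (7) were the same in every alternative run. No paired analysis was possible because the labels give the mice no shared replicate numbers.

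Over all genes, 2127 were called on 2% iron against 50 ppm by edgeR, and 1208 and 1161 by limma on log2(TPM + 1) and log2(TPM + 0.1). Against 500 ppm they were 1538, 910 and 862, with 924 in the groups alone, and against chow 3087, 1945 and 1987. On chow against 50 ppm they were 53, 21 and 14, with 144 by DESeq2 and 26 in the groups alone. On cellulose against 2% iron they were 11, 18 and 18, with 219 by DESeq2, 23 in the groups alone and 51 without a filter. On BXD against AXB/BXA they were 1606, and 906 by limma. With 1 mouse left out, the 5 diet contrasts gave 1003 to 1640, 788 to 2204, 2151 to 2627, 4 to 62 and 0 to 212 genes, in the order above. Depth limits the granule genes in the diet study, where S100a9 had 1 to 5 counts per mouse on 50 ppm.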

Other observations

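The other lists, on 2% iron against 50 ppm in C57BL/6J mice (edgeR, 15.7% of all genes called), moved in several directions. Of 12 acute phase genes, 3 were higher and 2 lower. Hamp, which encodes the iron hormone hepcidin, rose by 1.40 on the log2 scale (SE 0.30, adjusted p = 0.00761), and Itih3 by 0.78, with Lcn2 as the third. The serum amyloid genes Saa1 (-2.40, adjusted p = 0.0161) and Saa2 (-2.27) were lower, and as near-identical copies they may share reads. Of 10 hepatocyte genes, 5 were lower, among them Cyp2e1, an ethanol-metabolising cytochrome (-1.07, SE 0.13, adjusted p = 0.000489), and Apoa1 (-0.86).

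The erythroid genes called higher were the globins Hba-a1 (3.66), Hba-a2 (3.76), Hbb-bs (3.83) and Hbb-bt (3.55), whose copies may also share reads, and the anion exchanger Slc4a1 (4.15). Alas2, the first enzyme of haem synthesis in red cells, was lower (-1.51, SE 0.24, adjusted p = 0.0017). Of 7 proliferation genes tested, 3 were higher, at 1.54 for Rrm2, 1.69 for Top2a and 1.78 for Mki67. Single genes called higher were Treml4 of 10 monocyte genes (1.79), Bst2 of 5 genes of plasmacytoid dendritic cells (0.79) and Cd22 of 8 B cell genes (1.15), besides Mecom (1.25) and Gata2 (1.20) of 8 progenitor genes. Of 3 T and NK cell genes, 0 were called by edgeR and 0 had an unadjusted p under 0.05. No gene of the mast cell, basophil and eosinophil list passed the filter.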
